A study of Mus musculus with 24 samples.

Results

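Otx2, Pou3f1, Zic1, Zic2 and Zfp608 are 5 transcription factor or zinc finger genes linked to the primed epiblast, and they were taken as every probe annotated to these symbols on an Illumina MouseRef-8 v2 BeadChip. Each had 1 probe, so they are 5 of 16593 genes and 5 of 25697 probes. All 5 passed the detection filter, which kept 8932 genes for testing. Total RNA was measured on 24 arrays, 2 in each of 12 groups of mouse pluripotent lines, which the series description calls biological replicates. The groups were P19-Sox2, P19 embryonal carcinoma cells that overexpress wild-type Sox2, and their parent P19 EC; F9-Sox2, F9 embryonal carcinoma cells that overexpress it, and F9 EC; Epi-Sox2f, female OG2 epiblast stem cells (EpiSCs) labelled as overexpressing it, with their parent EpiSCf and the female OG2 embryonic stem (ES) cells ESCf; and EpiSox2mE2, EpiSox2mE1 and EpiSox2mL2, male GOF18 EpiSCs that overexpress Sox2, with their parent EpiSCm and the male ES cells ESCm. By their labels, EpiSox2mE1 and EpiSox2mE2 were grown in ESC medium and are ESC like1 and ESC like2, while EpiSox2mL2 stayed in EpiSC medium. The labels name neither the promoter that drives Sox2 nor the number of clones behind a line, nor the background of ESCm.

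Naive ES cells correspond to the epiblast before implantation and primed EpiSCs to the epiblast after it, and both express Pou5f1, Sox2 and Nanog. Otx2 encodes a homeodomain factor that, in mouse cells leaving the naive state, takes part in moving Pou5f1 to new enhancers, and it is later needed for the forebrain. Pou3f1, also called Oct6, is a POU domain factor of the epiblast, of neural progenitors and of Schwann cells. Zic1 and Zic2 are zinc finger factors known from the neural plate and cerebellum. In the RefSeq annotation Zic1 lies next to Zic4, and Zic2 next to Zic5. Zfp608 encodes a zinc finger protein and has the paralog Zfp609.

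Promoter windows of 300 bases around a start, from RefSeq (GRCm38.p6), were searched for Otx2 (4 windows) and Zic1 (1 window). No window of Pou3f1, Zic2 or Zfp608 entered the search. Both windows printed here belong to the genes that were highest in the P19 lines. The Otx2 window is the third of its 4 starts, chr14:48665060-48665359, and the Zic1 window is chr9:91365719-91366018, both on the minus strand. They are written 5′ to 3′, with capitals marking the reverse complement of the OTX motif TAATCC.
Otx2: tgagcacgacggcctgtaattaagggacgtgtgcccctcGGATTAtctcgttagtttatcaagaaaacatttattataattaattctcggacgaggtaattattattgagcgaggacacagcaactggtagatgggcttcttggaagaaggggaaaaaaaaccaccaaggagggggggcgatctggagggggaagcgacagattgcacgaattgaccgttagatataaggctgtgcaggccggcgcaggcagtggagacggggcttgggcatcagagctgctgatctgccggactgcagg
Zic1: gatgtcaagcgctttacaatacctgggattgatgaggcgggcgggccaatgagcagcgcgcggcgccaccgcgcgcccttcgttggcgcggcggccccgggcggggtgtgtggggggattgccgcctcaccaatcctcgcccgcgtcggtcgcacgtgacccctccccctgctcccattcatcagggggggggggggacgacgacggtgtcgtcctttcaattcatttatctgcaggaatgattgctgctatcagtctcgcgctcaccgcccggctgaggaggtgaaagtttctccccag
Searched on both strands were TAATCC, the octamer letters ATGCAAA, and the SOX letters ACAAAG and ACAATG. The only match was TAATCC on the opposite strand at base 40 of the third Otx2 window. No letters searched for were in the Zic1 window or in the other 3 Otx2 windows. Over 32851 windows of this length, 7.06% held TAATCC, 4.63% ATGCAAA, 18.7% ACAAAG and 12.6% ACAATG. The share of G and C was 51.0% in the printed Otx2 window and 65.3% in the Zic1 window. A match is a run of letters and no test of binding, and the array does not show which start was used.

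Values are background-corrected, quantile-normalized log2 intensities, in arbitrary units, and changes are differences of these. Levels of different genes are not set against each other, because they come from different probes. The 8 arrays of the GOF18 lines were dimmer, with median signals of 90.19 to 101.1 against 118.6 to 152.2 on the other 16 arrays, and replicate arrays correlated at 0.986 to 0.995 over the tested genes. Scaling the arrays by their medians instead moved the median of all genes to 0.24 for EpiSCf over ESCf, -0.17 for EpiSCm over ESCm, -0.25 for EpiSox2mE2 over EpiSCm and -0.46 for EpiSox2mE2 over ESCm. ESCm was among the brighter 16 arrays. The brightness of the arrays and the cell line cannot be told apart where GOF18 groups meet others, ESCm included. Sox2 itself, read on the brighter of its probes that passed the filter, was 0.82 to 1.30 higher on the log2 scale in 5 overexpressing groups than in their parents, with adjusted p of at most 0.00031 by limma. The arrays labelled Epi-Sox2f showed no such rise over EpiSCf (-0.18, adjusted p = 0.322). Pou5f1, Sox2 and Nanog were detected on all 24 arrays.

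Markers of the cell states followed the labels in part. Of 8 naive markers with a probe, such as Klf4 and Esrrb, 7 were detected on both arrays of ESCf, ESCm, F9 EC and F9-Sox2, and none on both arrays of EpiSCf or of the arrays labelled Epi-Sox2f. In the other groups 7 were detected in EpiSox2mL2, 5 in EpiSox2mE2, 3 in EpiSox2mE1, 4 in EpiSCm, 5 in P19-Sox2 and 4 in P19 EC. The summed naive signal was 3856 to 4324 in EpiSox2mL2, 2619 to 3070 in EpiSox2mE2 and 2065 to 2353 in EpiSox2mE1. It was thus higher in the group labelled EpiSC medium than in those labelled ESC medium. Whether the medium labels match the arrays was not tested. Of 8 EpiSC markers, such as Fgf5 and Fgf8, 5 or 6 were detected in every EpiSC and P19 group, 3 in ESCm and 0 or 1 in ESCf, F9 EC and F9-Sox2. Their summed signal was 4447 to 4718 in EpiSCf and 4643 to 5043 in EpiSCm, against 459.8 to 516.9 in ESCf and 300.6 to 346.1 in ESCm. Of the 6 EpiSC markers tested, 5 rose and 1 fell in each of EpiSCf over ESCf and EpiSCm over ESCm. Lef1 was the 1 that fell in EpiSCm, with means of 4.87 against 5.67 in ESCm. Fewer cells of a type and less RNA per cell cannot be told apart in such bulk samples.

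**Figure D1:**
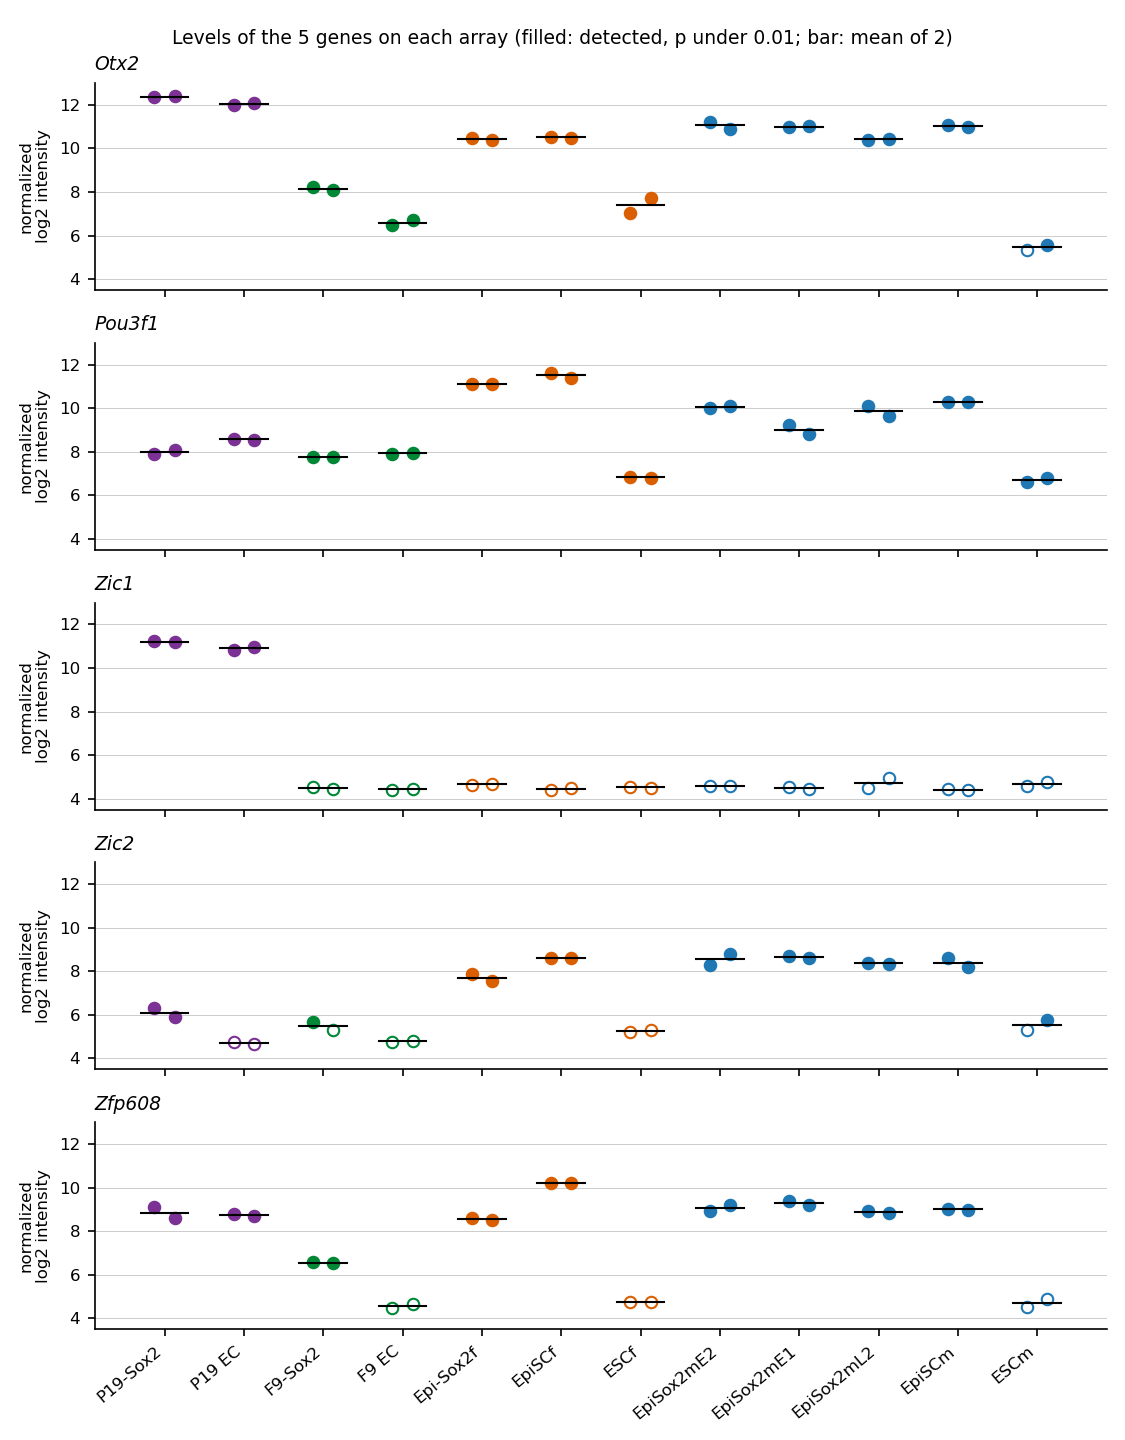
Normalized log2 intensity (y axis) of the 5 genes on each of 24 arrays in 12 groups (x axis); filled points are detected at p under 0.01, open points are not, and bars are means of 2 arrays. Otx2, Zic2 and Zfp608 sit low in ES cells and F9 EC and high in EpiSC groups, while Zic1 is detected on the 4 P19 arrays and on no other.

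Otx2 was detected on 23 of 24 arrays and spanned 6.93 log2 units between group means. It was highest in P19-Sox2 (12.34 and 12.42 on the 2 arrays), followed by P19 EC (11.97 and 12.07). Next came EpiSox2mE2 (11.22 and 10.91), EpiSCm (11.07 and 10.97) and EpiSox2mE1 (10.96 and 11.03), which overlapped. A lower set held EpiSCf (10.54 and 10.50), the arrays labelled Epi-Sox2f (10.49 and 10.38) and EpiSox2mL2 (10.40 and 10.43). The last of these overlapped with the arrays labelled Epi-Sox2f. F9-Sox2 (8.22 and 8.07) lay below every EpiSC array. ESCf followed at 7.02 and 7.74, the widest pair for this gene (SD 0.51). F9 EC lay at 6.48 and 6.69, and ESCm at 5.33 and 5.58, where 1 of 2 arrays detected it. Under median scaling EpiSCf stood the third among the groups and not the sixth, so the order between the female and the GOF18 arrays depended on the scaling.

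Pou3f1 was detected on all 24 arrays and was highest in the female EpiSCs, with a span of 4.82. EpiSCf gave 11.64 and 11.37 and the arrays labelled Epi-Sox2f 11.13 and 11.11. The GOF18 groups followed, with EpiSCm at 10.27 and 10.28, EpiSox2mE2 at 9.99 and 10.12, EpiSox2mL2 at 10.09 and 9.64, and EpiSox2mE1 at 9.22 and 8.81. Of these, EpiSox2mE2 and EpiSox2mL2 overlapped. P19 EC was below every EpiSC group (8.61 and 8.52), but under median scaling its mean of 8.80 lay above that of EpiSox2mE1 (8.64). P19-Sox2 (7.92 and 8.07), F9 EC (7.92 and 7.93) and F9-Sox2 (7.74 and 7.76) lay close together. Both ES lines were lowest, ESCf at 6.84 and 6.82 and ESCm at 6.59 and 6.77. Pou3f1 and Otx2 therefore had different leading groups, female EpiSCs for Pou3f1 and P19 lines for Otx2.

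Zic1 was detected on 4 of 24 arrays, all of them P19 lines, and passed the detection filter through these alone. Its level was 11.23 and 11.17 in P19-Sox2 and 10.82 and 10.98 in P19 EC. Group means in the other 10 groups were 4.42 to 4.71, with 0 of 2 arrays detected in each. Deposited intensities were 3556 and 2423 in P19-Sox2 and 2936 and 2592 in P19 EC, and 79.9 to 131 on the remaining 20 arrays. No EpiSC group therefore had a detectable level of Zic1, which goes against its label as a gene of primed cells in these lines.

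Zic2 was detected on 16 arrays and spanned 3.94. EpiSox2mE1 (8.72 and 8.60), EpiSCf (8.63 and 8.60), EpiSox2mE2 (8.31 and 8.82), EpiSCm (8.60 and 8.19) and EpiSox2mL2 (8.40 and 8.35) formed a chain of overlapping pairs. The arrays labelled Epi-Sox2f were next, at 7.89 and 7.54. P19-Sox2 was detected on both arrays (6.31 and 5.91), whereas P19 EC was detected on neither (4.78 and 4.65). ESCm (5.30 and 5.75) and F9-Sox2 (5.68 and 5.31) were detected on 1 array each. ESCf (5.23 and 5.29) and F9 EC (4.78 and 4.80) were not detected. The order within the EpiSC groups depended on the scaling. EpiSCf led with a mean of 8.97 under median scaling, where EpiSox2mE1 had 8.26.

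Zfp608 was detected on 18 arrays and spanned 5.67. EpiSCf stood above all other groups, with 10.23 and 10.20. EpiSox2mE1 (9.40 and 9.18), EpiSox2mE2 (8.92 and 9.19), EpiSCm (9.04 and 8.97), EpiSox2mL2 (8.94 and 8.84), P19-Sox2 (9.11 and 8.59), P19 EC (8.79 and 8.69) and the arrays labelled Epi-Sox2f (8.60 and 8.50) lay within 1 log2 unit of each other by their means. F9-Sox2 had 6.60 and 6.52. ESCf (4.76 on both arrays), ESCm (4.51 and 4.87) and F9 EC (4.45 and 4.64) were not detected. The gene thus separated EpiSC and P19 groups from ES cells and F9 EC, with F9-Sox2 between. Under median scaling P19 EC came the second, with a mean of 8.98.

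Otx2, Pou3f1, Zic2 and Zfp608 were all higher in EpiSCf than in ESCf, the comparison of female primed with female naive cells. Otx2 rose by 3.14 on the log2 scale (SE 0.18, 8.83-fold, adjusted p = 2.47e-11 by limma with Benjamini-Hochberg adjustment over 8932 genes). Pou3f1 had the highest fold here that was measured on both sides, 25.5-fold (log2 4.67, SE 0.15). Zic2 rose by 3.35 and Zfp608 by 5.45. ESCf detected neither, so their folds are lower limits on the background-corrected scale, taken against the lowest detected signal: at least 8.14-fold for Zic2 and at least 24.6-fold for Zfp608. The 4 members called of 5 stand against a background in which 60.3% of all genes were called in this comparison, 33% up and 27.4% down. Without background correction the rises of Zic2 and Zfp608 were 1.80 and 3.32.

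In the male lines the same 4 genes were higher in EpiSCm than in ESCm, where 70% of all genes were called, 41.3% up and 28.7% down. The EpiSCm arrays were among the dimmer ones and the ESCm arrays among the brighter, which cannot be told apart from the cell state. Otx2 rose by 5.57 (SE 0.18, 47.5-fold, adjusted p = 1.13e-14 by limma, with 1 of 2 ESCm arrays above detection, so that the fold rests partly on a value below it) and Pou3f1 by 3.60 (12.1-fold, adjusted p = 6.8e-13). Zic2 rose by 2.87 (7.30-fold, likewise with 1 of 2 ESCm arrays above detection) and Zfp608 by 4.32 (at least 12.1-fold). Without background correction Zic2 rose by 1.55 and Zfp608 by 2.30. Zic1 was below detection on all 8 arrays of both comparisons. Fibroblast and feeder markers were detected for 4 of 10 genes in ESCf and in ESCm, against 2 of 10 in EpiSCf and 1 of 10 in EpiSCm. Their summed signal was 451.9 to 463.1 in EpiSCf and 378.1 to 413.6 in EpiSCm, against 730.6 to 799.8 in ESCf and 566.9 to 622.7 in ESCm. The part of those cells in the differences was not tested.

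The sizes of these rises differed between the female and the male pair. For Otx2 the female rise was smaller by 2.43 on the log2 scale (difference of effects, SE 0.25, adjusted p = 3.02e-07 by limma). It was larger in the female pair for Pou3f1, by 1.07 (adjusted p = 0.000494), and for Zfp608, by 1.14 (adjusted p = 0.000445). For Zic2 the difference of 0.48 was not called (adjusted p = 0.161), although under median scaling it was 1.20 (adjusted p = 0.00633). Such differences were called for 50.9% of all genes, 23.1% positive and 27.8% negative. The pairs differ in sex and, for the EpiSCs, in background. The male pair also sets dimmer EpiSCm arrays against brighter ESCm arrays, while both female groups were on brighter arrays. These differences cannot be told apart. With the authors' log2 values the Zfp608 difference was 0.98 (adjusted p = 0.0586), and under median scaling that of Pou3f1 was 1.73. Without background correction the Otx2 difference was -1.35.

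**Figure D2:**
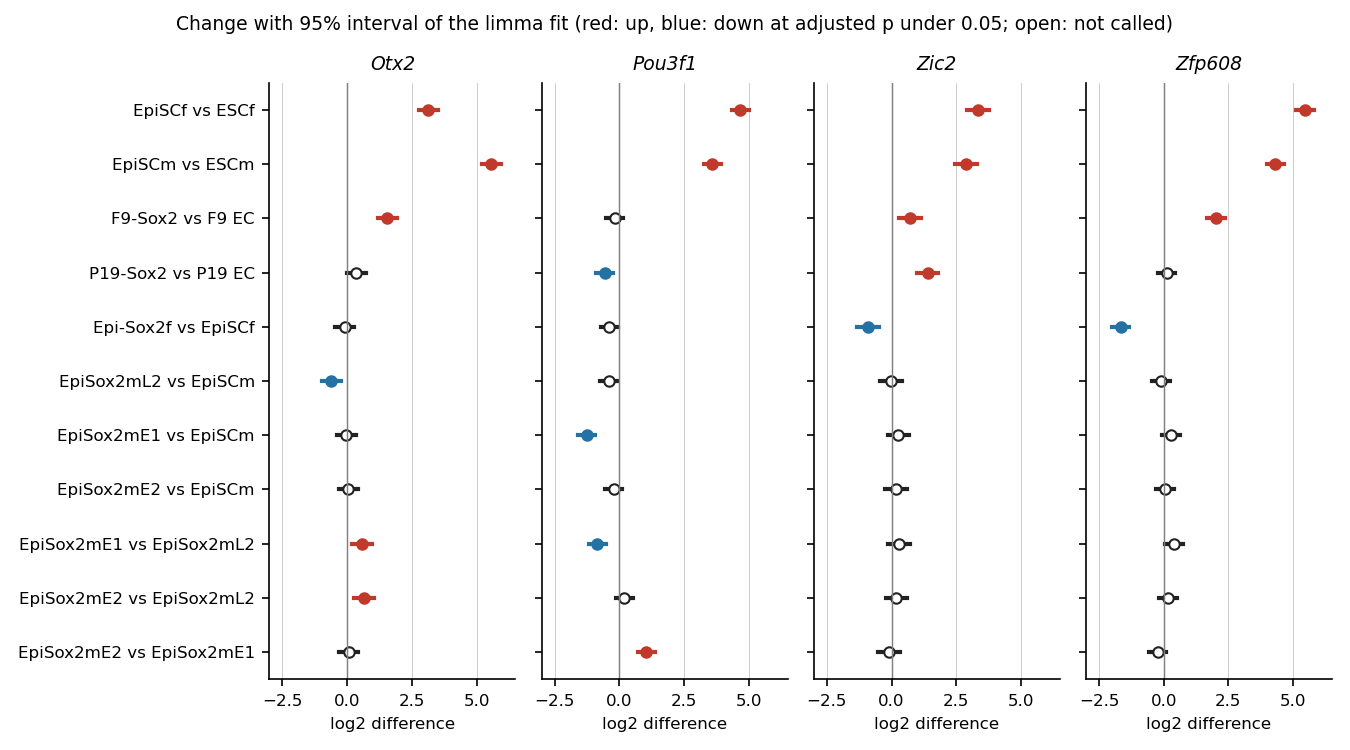
Change in Otx2, Pou3f1, Zic2 and Zfp608 (x axis, log2 difference, first-named group minus the other) in 11 comparisons (y axis); points are limma estimates, lines 95% intervals, red is called up, blue called down and open not called at adjusted p under 0.05. The 4 genes rose in both EpiSC over ES cell comparisons, while the Sox2 groups differ by gene and by line.

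Other genes of the primed epiblast, a list of 21 of which 20 had a probe and 16 were tested, mostly moved the same way between primed and naive cells. The list includes all of the EpiSC markers above. In EpiSCf over ESCf 10 rose and 4 fell, with a median of 1.25 against 0.07 over all genes. The growth factor genes Fgf5 (5.48) and Fgf8 (4.80), the carbonic anhydrase gene Car14 (5.09) and the zinc finger gene Sall2 (4.02) changed most. ESCf detected none of these 4, so they were at least 27.2-fold higher for Fgf5, 19.9-fold for Fgf8, 32.4-fold for Car14 and 11.4-fold for Sall2. In EpiSCm over ESCm 11 rose and 4 fell, with a median of 1.36 against 0.18 over all genes. Fgf5 (5.55), Car14 (5.10), Fgf8 (4.70) and the kinase gene Pim2 (3.80) led there. ESCm detected Car14 on both arrays (34.3-fold) and Fgf5 and Fgf8 on neither. For Pim2 the probe used was detected on neither ESCm array, and another Pim2 probe on both. Dnmt3a, Sox3, Foxd3 and Cer1 did not pass the filter, and Sox11 had no probe.

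**Figure D3:**
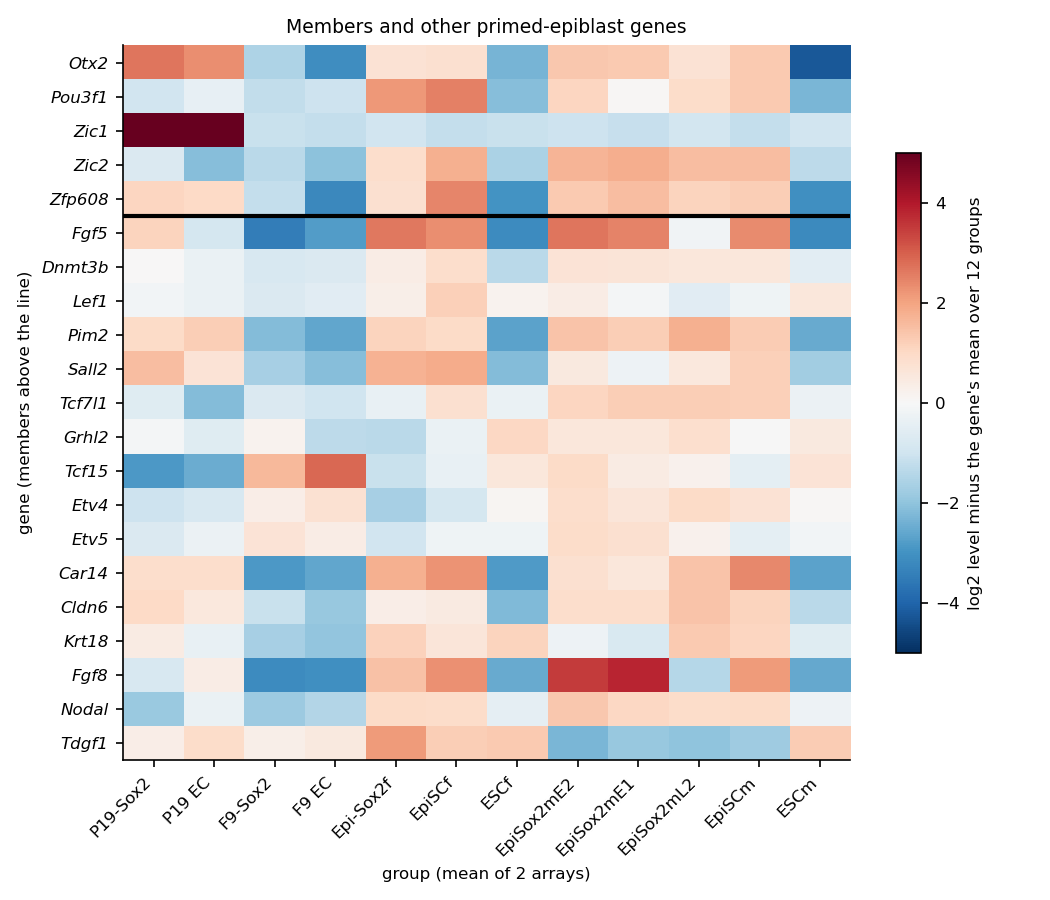
Group means of the 5 genes (above the line) and of 16 further primed epiblast genes (below it; y axis) in the 12 groups (x axis), as log2 level minus the gene's mean over groups; colours are clipped at the ends of the scale. Fgf8 and Fgf5 differ between EpiSox2mL2 and the other GOF18 groups more than Zic2 or Zfp608 do, and Zic1 stands out in P19 alone.

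P19 EC cells had far more Otx2, Zic1 and Zfp608 than F9 EC cells. Otx2 was 5.44 higher on the log2 scale (SE 0.18, 43.3-fold, adjusted p = 1.2e-14 by limma). Zic1 was at least 37.9-fold higher (log2 6.47, SE 0.14, adjusted p = 2.34e-17) and Zfp608 at least 8.47-fold higher (log2 4.19). Since Zic1 passed the filter through P19 arrays alone, its call here is no independent test. Pou3f1 rose by 0.64 (1.56-fold, adjusted p = 0.00175), and Zic2 was below detection in both lines. Without background correction the rises were 4.14 for Zic1 and 2.15 for Zfp608. The 4 rises stand against 55.2% of genes called, 28.1% up and 27.1% down. Of the 16 listed primed genes 10 rose and 4 fell (median 0.92). Tcf15, a basic helix-loop-helix gene, fell by 5.33, while Pim2 (3.82), Car14 (3.45) and Fgf8 (3.42) rose. F9 EC detected Pim2 and Fgf8 on neither array, and P19 EC did not detect Tcf15 on both. Except for Car14, these are fitted changes that rest partly on values below detection.

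Set against EpiSCf, P19 EC shared neither the level of Pou3f1 nor that of Zic2. Pou3f1 was lower by 2.94 on the log2 scale (-2.94, SE 0.15, 7.66-fold, adjusted p = 2.5e-11 by limma). Zic2 was lower by at least 8.07-fold (-3.90, adjusted p = 1.57e-11), since P19 EC did not detect it, and Zfp608 by 2.78-fold (-1.47). Without background correction the changes were -1.97 for Zic2 and 4.13 for Zic1. Otx2 was instead 1.50 higher (2.83-fold) and Zic1 at least 39.4-fold higher (log2 6.46). All 5 genes were thus called, 2 up and 3 down, where 51.5% of all genes were called, 24.8% up and 26.6% down. The Zic1 call again is no independent test, because P19 arrays alone carried the gene through the filter. The primed list leaned down, with 0 members up and 10 down (median -1.20), led by Fgf5 (-3.20), Tcf7l1 (-2.98), Tcf15 (-2.09) and Fgf8 (-1.91). P19 EC did not detect Tcf15 on both arrays. Of 10 neural markers only Nes and Map2 were detected on both arrays of P19 EC and of EpiSCf, and Sox1, Pax6 and the others on neither group's pair. Their summed signal was 366.9 to 389.0 in P19 EC and 674.4 to 714.4 in EpiSCf.

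F9 EC cells, compared with ESCm, had more Otx2 (6.48 and 6.69, against 5.33 and 5.58; log2 1.14, 2.20-fold, adjusted p = 3.71e-05 by limma). The Otx2 rise was 0.44 without background correction and 0.75 with an offset of 50, and 1 of 2 ESCm arrays detected the gene. ESCf, the other ES line, had more Otx2 than F9 EC, at 7.02 and 7.74. The direction for Otx2 thus depended on the ES line, and F9 EC was not tested against ESCf. Over ESCm, Pou3f1 was higher by 1.24 (2.37-fold, adjusted p = 2.7e-06), and by 0.74 without background correction. Zic2 was lower by 0.74 (-0.74, adjusted p = 0.00479), with no fold given since 0 arrays of F9 EC and 1 of ESCm detected it. That call was lost without background correction (-0.23, adjusted p = 0.108) and without ESCm replicate 2 (-0.52, adjusted p = 0.0922), and the value was -0.40 with an offset of 50 and -1.49 with the authors' log2 values. Zfp608 and Zic1 were below detection in both groups. The 2 members called up and 1 down stand against 48.5% of genes called, 24.7% up and 23.8% down. The primed list had 3 members up and 7 down (median -0.44), with Tcf15 (2.17) highest and Grhl2 (-1.81), Krt18 (-1.36) and Nodal (-1.18) lowest. F9 EC detected Krt18 on neither array.

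Sox2 overexpression in F9 cells went with higher Otx2, Zfp608 and Zic2. Otx2 was 8.22 and 8.07 in F9-Sox2 and 6.48 and 6.69 in F9 EC, a rise of 1.56 (SE 0.18, 2.95-fold, adjusted p = 7.49e-06 by limma; 0.95 without background correction). Zfp608 was detected in F9-Sox2 (6.60 and 6.52) and not in F9 EC (4.45 and 4.64), a rise of 2.01 or at least 1.87-fold (adjusted p = 1.05e-07). Zic2, at 5.68 and 5.31 in F9-Sox2 and 4.78 and 4.80 in F9 EC, rose by 0.71 (adjusted p = 0.029). Pou3f1 did not pass the test (-0.18, 95% interval -0.50 to 0.15, adjusted p = 0.598). The 3 calls among 5 genes were all rises and stand against 9.89% of all genes called, 5.39% up and 4.5% down. The Zic2 call ended under median scaling (adjusted p = 0.0535), without background correction (0.22, adjusted p = 0.29), with an offset of 50 (0.37, adjusted p = 0.125) and without F9 EC replicate 1, F9 EC replicate 2 or F9-Sox2 replicate 1 (adjusted p 0.124 to 0.27), and the rise was 1.44 with the authors' log2 values. The Zfp608 rise was 0.74 without background correction, 1.18 with an offset of 50 and 3.75 with the authors' log2 values, and was called in each.

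Otx2 in F9-Sox2 still lay below every EpiSC and P19 array, the lowest of which was 10.38. The primed list showed no shared direction in F9-Sox2 over F9 EC, with 2 members up, 2 down and a median of -0.10. Grhl2, an epithelial factor, rose by 1.46 and the tight junction gene Cldn6 by 0.77, while Tcf15 fell by 1.26 and Fgf5, undetected in both groups, had a fitted change of -0.63. EpiSC markers were not gained, with 0 of 8 detected on both arrays of F9-Sox2 and 1 of 8, Car14, in F9 EC. Naive markers stayed at 7 of 8 in both, with summed signals of 21710 to 23440 in F9-Sox2 and 23540 to 24230 in F9 EC.

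In P19 cells Sox2 overexpression went with higher Zic2 and lower Pou3f1. Zic2 was detected on both arrays of P19-Sox2 (6.31 and 5.91) and on neither of P19 EC (4.78 and 4.65), a rise of 1.40 (SE 0.20, at least 1.42-fold, adjusted p = 0.000116 by limma). It was 0.46 without background correction, 0.79 with an offset of 50 and 2.58 with the authors' log2 values, and was called in each. Pou3f1 was 7.92 and 8.07 in P19-Sox2 and 8.61 and 8.52 in P19 EC, a fall of 0.57 (-0.57, SE 0.15, 1.48-fold, adjusted p = 0.0234). That call was lost when only these groups entered the fit (adjusted p = 0.0595) or when any of the 4 arrays was left out (adjusted p 0.0583 to 0.148).

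Otx2 (0.36, 95% interval -0.02 to 0.73, adjusted p = 0.237), Zic1 (0.30, interval 0.01 to 0.58, adjusted p = 0.186) and Zfp608 (0.11, interval -0.23 to 0.45, adjusted p = 0.755) were not called in P19-Sox2 over P19 EC by limma. For Otx2 and Zic1 the arrays did not overlap, both P19-Sox2 values being higher, and both were called without background correction (adjusted p = 0.0436 and 0.0261). The 1 rise and 1 fall among 5 genes stand against 10.5% of genes called, 5.94% up and 4.53% down. Of the 16 listed primed genes 6 rose and 2 fell (median 0.11). Fgf5 (1.98) and Tcf7l1 (1.58), a repressor in the Wnt pathway, rose, while Nodal (-1.54), a signalling ligand of the epiblast, and Fgf8 (-1.19) fell.

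The responses of F9 and P19 cells differed for Otx2, by 1.20 on the log2 scale (F9 rise minus P19 rise, SE 0.25, adjusted p = 0.00411 by limma), and for Zfp608, by 1.90 (adjusted p = 2.39e-05). Differences for Zic2 (-0.69, adjusted p = 0.141) and Pou3f1 (0.39, adjusted p = 0.306) were not called. Over all genes 10.1% were called, 4.85% positive and 5.23% negative. Without background correction the differences were 0.60 for Otx2 and 0.65 for Zfp608, with adjusted p of 0.0144 and 0.00689. The Zfp608 difference was 1.08 with an offset of 50 and 3.63 with the authors' log2 values.

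The arrays labelled Epi-Sox2f, which showed no rise of Sox2 on the probe used, had less Zic2 and Zfp608 than EpiSCf. Zfp608 was 8.60 and 8.50 in the arrays labelled Epi-Sox2f and 10.23 and 10.20 in EpiSCf, a fall of 1.66 (-1.66, SE 0.16, 3.17-fold, adjusted p = 1.57e-06 by limma). Zic2 was 7.89 and 7.54 against 8.63 and 8.60, a fall of 0.90 (-0.90, 1.87-fold, adjusted p = 0.00251). Otx2 did not pass (-0.09, adjusted p = 0.773). Pou3f1 was lower on both arrays labelled Epi-Sox2f than on both EpiSCf arrays, yet missed the threshold (-0.38, adjusted p = 0.0728) and passed it without background correction (adjusted p = 0.0169) or with an offset of 50 (adjusted p = 0.0375). The 2 falls among 5 genes stand against 29.2% of genes called, 13.7% up and 15.5% down. Among the 16 listed primed genes 1 rose, Tdgf1, a co-receptor of Nodal (0.90), and 9 fell, with Tcf7l1 (-1.15), Grhl2 (-0.99) and Lef1 (-0.87) lowest (median -0.49). Lef1 was detected on 1 of the 2 arrays labelled Epi-Sox2f. Neural markers detected on both arrays were Nes, Map2 and Dcx in the arrays labelled Epi-Sox2f and Nes and Map2 in EpiSCf, with summed signals of 819.0 to 837.4 against 674.4 to 714.4. Their part in these changes was not tested.

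Zic2 and Zfp608 did not pass the test in any of the 3 GOF18 Sox2 groups over EpiSCm, and Otx2 and Pou3f1 each passed in 1. These 3 comparisons share the EpiSCm arrays. In EpiSox2mL2 Otx2 was 10.40 and 10.43, against 11.07 and 10.97 in EpiSCm, a fall of 0.61 (-0.61, SE 0.18, 1.52-fold, adjusted p = 0.0189 by limma, with 24.4% of all genes called, 12.9% up and 11.5% down). The call was lost with the authors' log2 values (adjusted p = 0.0531), with only these groups fitted (0.0643), and without EpiSCm replicate 1 (0.0886), EpiSox2mL2 replicate 1 (0.0915) or EpiSox2mL2 replicate 2 (0.0671). Pou3f1 in EpiSox2mL2 was not called (-0.41, adjusted p = 0.0587), and was called without background correction (0.018), with an offset of 50 (0.0314), with an intensity trend (0.0382) and without EpiSox2mL2 replicate 1 (-0.64, 0.0215), these being adjusted p-values of limma. Zic2 (-0.02, 95% interval -0.44 to 0.40) and Zfp608 (-0.11, interval -0.45 to 0.23) missed the threshold.

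In EpiSox2mE1, labelled as grown in ESC medium, Pou3f1 was 9.22 and 8.81, against 10.27 and 10.28 in EpiSCm. This fall of 1.26 (-1.26, SE 0.15, 2.40-fold, adjusted p = 7e-06 by limma) was the only call of 5 genes, with 28.9% of all genes called, 13.3% up and 15.6% down. Otx2 (-0.02), Zic2 (0.26) and Zfp608 (0.28) missed the threshold, with adjusted p of 0.939, 0.353 and 0.208. In EpiSox2mE2 no member was called by limma, with 28.7% of all genes called (12.6% up and 16.1% down) and 0 of the 5 genes at an unadjusted p under 0.05. The values were 0.04 for Otx2, -0.22 for Pou3f1, 0.17 for Zic2 and 0.05 for Zfp608. Their 95% intervals ran from -0.33 to 0.42 for Otx2, from -0.55 to 0.10 for Pou3f1, from -0.25 to 0.58 for Zic2 and from -0.29 to 0.39 for Zfp608. Under median scaling Pou3f1 was called there (-0.54, adjusted p = 0.0383) and Otx2, Zic2 and Zfp608 turned negative (-0.27, -0.18 and -0.30), against a median over all genes of -0.25.

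**Figure D4:**
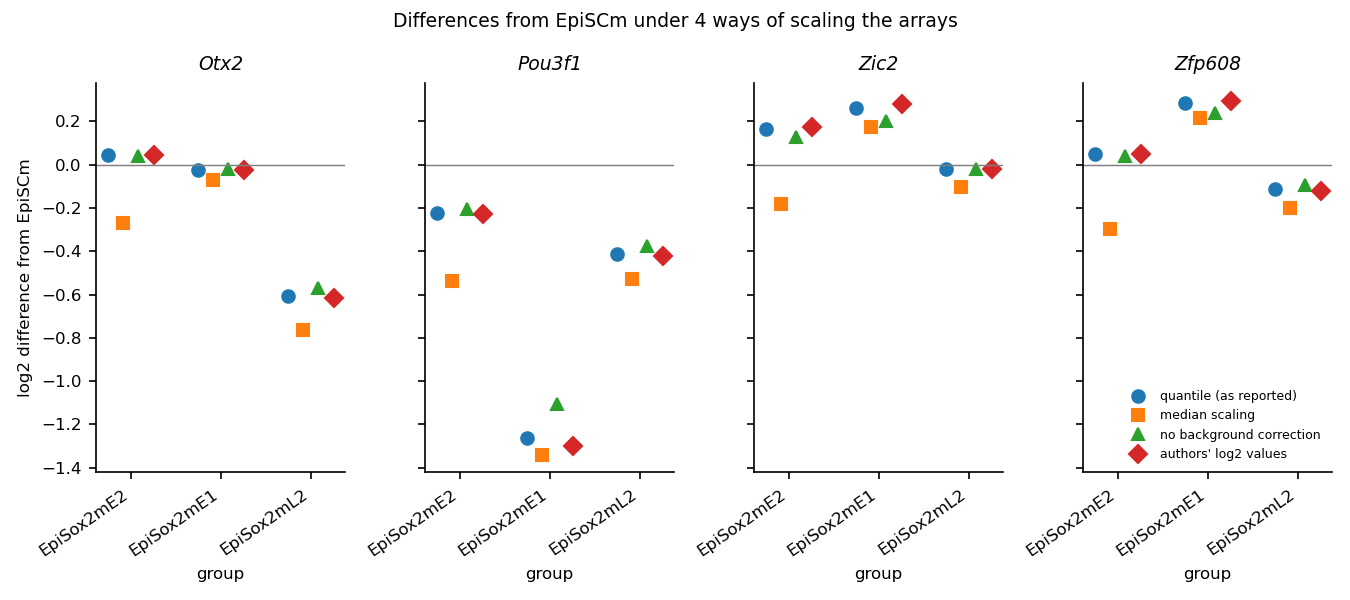
Log2 difference of EpiSox2mE2, EpiSox2mE1 and EpiSox2mL2 (x axis) from EpiSCm (y axis) for Otx2, Pou3f1, Zic2 and Zfp608 under quantile normalization, median scaling, no background correction and the authors' log2 values. Points for EpiSox2mE2 under median scaling lie lower than the others, -0.27 for Otx2, and the EpiSox2mE1 fall of Pou3f1 is seen under every scaling.

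Among the GOF18 Sox2 groups, Otx2 was higher in both cultures labelled as in ESC medium than in EpiSox2mL2, while Pou3f1 was lower in EpiSox2mE1 alone. A single line is labelled as in EpiSC medium here, so line and medium cannot be told apart. In EpiSox2mE1 over EpiSox2mL2, Otx2 was higher (10.96 and 11.03, against 10.40 and 10.43) by 0.58 (SE 0.18, 1.50-fold, adjusted p = 0.0177 by limma). Pou3f1 was lower by 0.85 (9.22 and 8.81, against 10.09 and 9.64; -0.85, 1.80-fold, adjusted p = 0.000366). Zic2 (0.28, adjusted p = 0.305) and Zfp608 (0.40, adjusted p = 0.0703) missed the threshold, and 31.4% of all genes were called, 14% up and 17.3% down. The Otx2 call was lost with the authors' log2 values (adjusted p = 0.0503) and without any of the 4 arrays (adjusted p 0.0521 to 0.0862), and Zfp608 was called without background correction (adjusted p = 0.0228) or with an offset of 50 (adjusted p = 0.0324).

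In EpiSox2mE2 over EpiSox2mL2, Otx2 was also higher (11.22 and 10.91, against 10.40 and 10.43; 0.65, 1.57-fold, adjusted p = 0.00816 by limma), and this was the only member called where 35.3% of all genes were, 15.7% up and 19.6% down. The call ended under median scaling (0.49, adjusted p = 0.0744) and without EpiSox2mE2 replicate 1 (0.50, adjusted p = 0.0874). Pou3f1 (0.19), Zic2 (0.19) and Zfp608 (0.16) missed the threshold, with adjusted p of 0.364 to 0.502. The cultures labelled as in ESC medium differed from each other in Pou3f1, at 9.99 and 10.12 in EpiSox2mE2 and 9.22 and 8.81 in EpiSox2mE1. That rise of 1.04 (SE 0.15, 2.06-fold, adjusted p = 0.000805) came in a comparison in which 2.38% of genes were called, 1.12% up and 1.27% down. It was not called with only these groups in the fit (adjusted p = 0.243). Otx2, Zic2 and Zfp608 overlapped between the cultures labelled as in ESC medium.

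Fgf5 and Fgf8 were lower in EpiSox2mL2 than in the other GOF18 groups, EpiSCm included. Fgf8 was 11.47 and 11.37 in EpiSox2mE1, 10.95 and 11.26 in EpiSox2mE2, 6.27 and 6.13 in EpiSox2mL2 and 10.12 and 9.40 in EpiSCm. Its changes were 5.22 in EpiSox2mE1 and 4.91 in EpiSox2mE2 over EpiSox2mL2, and -3.56 in EpiSox2mL2 over EpiSCm. Fgf5 was 10.56 and 10.43 in EpiSox2mE1, 10.71 in EpiSox2mE2, 7.85 and 7.86 in EpiSox2mL2 and 10.18 and 10.57 in EpiSCm. The keratin gene Krt18 fell by 2.08 in EpiSox2mE1 over EpiSox2mL2 and by 1.59 in EpiSox2mE2 over EpiSox2mL2. Of the 16 listed genes, 4 rose and 3 fell in EpiSox2mL2 over EpiSCm, 4 rose and 3 fell in EpiSox2mE1, and 4 rose and 2 fell in EpiSox2mE2. Over EpiSox2mL2, 3 rose and 4 fell in EpiSox2mE1 and 5 rose and 3 fell in EpiSox2mE2, and none was called between EpiSox2mE2 and EpiSox2mE1. Medians of the list in these 6 comparisons were between -0.05 and 0.20. Primitive streak markers were detected for 6 of 7 genes in EpiSox2mE1 and EpiSox2mE2, 0 of 7 in EpiSox2mL2 and 5 of 7 in EpiSCm, with summed signals of 1648 to 1702, 1398 to 1728, 203.9 to 221.1 and 543.2 to 693.7 in that order. Their part in the member levels was not tested.

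All 3 GOF18 Sox2 groups remained far above ESCm for the 4 genes, in comparisons that share the ESCm arrays. Here too dimmer arrays are set against brighter ones. Otx2 was higher by 5.55 in EpiSox2mE1, 5.61 in EpiSox2mE2 and 4.96 in EpiSox2mL2 (SE 0.18; 46.7-, 48.9- and 31.2-fold). Pou3f1 was higher by 2.33 in EpiSox2mE1 (5.04-fold), 3.38 in EpiSox2mE2 and 3.18 in EpiSox2mL2. Both cultures labelled as in ESC medium therefore had all 4 genes above every ESCm array. Their summed naive signal was lower than that of EpiSox2mL2. ESCm detected Otx2 and Zic2 on 1 of 2 arrays and Zfp608 on neither. Zic2 was 3.13, 3.03 and 2.85 higher and Zfp608 4.60, 4.36 and 4.20 higher in EpiSox2mE1, EpiSox2mE2 and EpiSox2mL2, with Zfp608 at least 14.7-, 12.5- and 11.2-fold above the detection limit of ESCm. Every one of these 12 changes had an adjusted p of at most 4.47e-10 by limma, all of them rises. Of all genes 67.4% were called in EpiSox2mE1 (39.2% up, 28.2% down), 65.7% in EpiSox2mE2 (37.7% up, 28% down) and 68.8% in EpiSox2mL2 (40.9% up, 27.9% down). Without background correction the rises were 1.75, 1.68 and 1.53 for Zic2 and 2.54, 2.34 and 2.21 for Zfp608, in the same order of groups, and 3.29 for Otx2 in EpiSox2mL2. In each comparison 11 listed primed genes rose, and 2, 1 and 3 fell, with medians of 1.22, 1.28 and 1.17 against 0.16, 0.15 and 0.19 over all genes.

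The change with Sox2 differed between EpiSox2mL2 and P19-Sox2 for a pair of genes. For Otx2 the EpiSox2mL2 change over EpiSCm was lower by 0.96 than the P19-Sox2 change over P19 EC (-0.96, SE 0.25, adjusted p = 0.0125 by limma). For Zic2 it was lower by 1.42 (-1.42, adjusted p = 0.00189), with effects of -0.02 in EpiSox2mL2 and 1.40 in P19-Sox2. Pou3f1 (0.15) and Zfp608 (-0.22) gave no call, with adjusted p of 0.683 and 0.544. Such differences were called for 18.6% of all genes, 9.75% positive and 8.87% negative. The Zic2 value was -0.48 without background correction, -0.81 with an offset of 50 and -2.60 with the authors' log2 values.

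Relatives of the 5 genes were mostly undetected. Of 9 listed paralogs 8 had a probe, and only Zfp609 passed the filter. Otx1, Crx, Pou3f3, Pou3f4, Zic4 and Zic5 were detected on 0 of 24 arrays, and Pou3f2, another POU domain factor, on 3, at most at 5.85. Zic4 thus was not detected on the P19 arrays where Zic1 was, nor Zic5 where Zic2 was detected. Zfp609 was 6.04 and 6.34 in EpiSCf and 5.52 and 5.84 in ESCf, a rise of 0.51 (adjusted p = 0.0373 by limma). It was lower than in ESCm in EpiSox2mE1 (-0.56), EpiSox2mE2 (-0.63) and EpiSox2mL2 (-0.58), with adjusted p of 0.0112 to 0.022, and was not called in the other 13 comparisons. The Zfp609 probe used was detected on 0 arrays of EpiSox2mE1 and on 1 each of EpiSox2mE2 and EpiSox2mL2. These falls thus lie near the detection limit, and they set dimmer arrays against brighter ones. Another Zfp609 probe was detected on 0 of 24 arrays.

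Group means of the members moved together to different degrees over the 12 groups, which include related lines. Otx2 and Zfp608 had Pearson's r of 0.913, Pou3f1 and Zic2 0.804, Pou3f1 and Zfp608 0.802, and Zic2 and Zfp608 0.747. Otx2 was less close to Pou3f1 (0.605) and Zic2 (0.509). Zic1 was unlike Zic2 (-0.399) and Pou3f1 (-0.203), and its values reflect P19 lines against the rest. Over the 8 groups of brighter arrays the values were 0.899 for Otx2 and Zfp608, 0.856 for Pou3f1 and Zic2, and 0.358 for Otx2 and Zic2. Ranks over all 12 groups gave another order. Spearman's rho was 0.853 for Zic2 and Zfp608, 0.755 for Pou3f1 and Zfp608, 0.678 for Pou3f1 and Zic2, and 0.664 for Otx2 and Zfp608. Groups in which Zic2 or Zfp608 was below detection enter all of these values.

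Among 3345 tested genes whose group means spanned at least 2 log2 units, the 5 with the highest Pearson's r over the 12 group means were named for each member. Otx2 was most like Usp47 (0.952), a ubiquitin-specific protease gene, Mapk8ip2 (0.939), Gtpbp2 (0.939), Tmem98 (0.937) and Fut10 (0.935). Pou3f1 was most like Rasl12 (0.956), Rnf144a (0.952), Rem2 (0.950), Sppl2b (0.945) and Akap9 (0.945). Zic1 was most like Cftr (0.997), the chloride channel gene, Vstm2a (0.996), Nrn1 (0.991), Slc30a10 (0.988) and Rassf5 (0.988). Cftr had means of 9.28 in P19-Sox2 and 9.27 in P19 EC and of 4.42 to 4.79 in the other 10 groups, where no array detected it. Values for Zic1 therefore rest on the 2 P19 groups against 10 others.

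Zic2 was most like Pde1b (0.973), a phosphodiesterase gene, Tead2 (0.954), Stxbp4 (0.944), Fzd2 (0.944), a Wnt receptor gene, and Nabp2 (0.941). Pde1b had means of 7.23 in P19-Sox2 and 5.56 in P19 EC, and of 8.76 to 9.77 in the EpiSC groups. Zfp608 was most like Fut10 (0.971), Acot2 (0.958), Pim2 (0.949), Mapk12 (0.947) and Kdm8 (0.945). Fut10 thus appeared for both Otx2 and Zfp608, with means of 6.08 in F9-Sox2, 5.44 in F9 EC, 5.01 in ESCf and 5.15 in ESCm, against 6.81 to 7.46 in the EpiSC and P19 groups. Under median scaling r was 0.965 for Zic2 with Pde1b and 0.837 for Zic2 with Nabp2, and 0.938 for Zfp608 with Fut10. The order of the Otx2 genes changed under that scaling, with r of 0.956 for Mapk8ip2, 0.916 for Tmem98, 0.899 for Fut10, 0.877 for Usp47 and 0.865 for Gtpbp2. The correlations are descriptions over 12 group means, which share arrays' processing and lines of common origin.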

How the data were processed

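Per the labels, 300 ng of RNA per sample was amplified and hybridised to 24 arrays in 12 groups of 2. BeadStudio 3.2, lumi and RMA are listed in the submitters' processing notes. The authors deposited an intensity and a detection p-value per probe and array, and separately processed log2 values whose making is not given in the sources used here; the latter served as an alternative (r = 0.991 with the values used). Slides were not named in the files.

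With limma 3.58.1 (R 4.3.3), intensities were corrected by normexp, using the deposited detection p-values and an offset of 16, then put on the log2 scale and quantile normalized. A single symbol was given to 23978 of 25697 probes and none to 1719; 23962 matched RefSeq by Entrez identifier. A probe was kept if detected (p under 0.01) on both arrays of a group (13082 probes, 12324 named), and the brightest kept probe stood for each of 8932 genes. Limma fitted 1 mean per group over 24 arrays (12 residual and 6.13 prior degrees of freedom), with Benjamini-Hochberg adjustment and calls at adjusted p under 0.05, for 17 comparisons and 3 differences of effects. The test was tried on simulated data.

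A fold is "at least" where the gene was detected on 0 arrays of the dimmer group: the brighter mean over, per array, the higher of the lowest detected signal and the gene's own. These limits hold for the background-corrected values only. Named were the members, their paralogs, at most 4 called listed genes with the largest change in a comparison, and the 5 genes most like each member. Levels and deposited intensities of members are given as measured. Members and lists were chosen with earlier results of these data known. The number of arrays limits the precision. Groups share replicate numbers, but the labels do not say that these pair samples. Alternatives were median scaling, no background correction, offset 50, the authors' log2 values, no filter or detection p under 0.05, every named probe tested, an intensity trend, a replicate block, only the compared groups, and leaving out each array.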

Additional observations from a re-analysis of the deposited data

Results flagged for a closer look

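A test of the difference between a pair of effects singled out 7 results, all by limma with adjustment over 8932 genes. Between the EpiSC over ES cell effects, female minus male, Otx2 differed by -2.43 (3.14 in EpiSCf over ESCf, 5.57 in EpiSCm over ESCm, adjusted p = 3.02e-07), Pou3f1 by 1.07 (4.67 and 3.60, adjusted p = 0.000494) and Zfp608 by 1.14 (5.45 and 4.32, adjusted p = 0.000445). For Otx2 the female pair includes the 2 ESCf arrays that differ most from each other, 7.02 and 7.74. For Zfp608 neither ESCf nor ESCm detected the gene, so both of its effects are lower limits. Between the Sox2 effects, F9-Sox2 over F9 EC minus P19-Sox2 over P19 EC, Otx2 differed by 1.20 (1.56 and 0.36, adjusted p = 0.00411) and Zfp608 by 1.90 (2.01 and 0.11, adjusted p = 2.39e-05). Between EpiSox2mL2 over EpiSCm and P19-Sox2 over P19 EC, Otx2 differed by -0.96 (-0.61 and 0.36, adjusted p = 0.0125) and Zic2 by -1.42 (-0.02 and 1.40, adjusted p = 0.00189). Otx2 stands in all 3 of these comparisons of effects.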

How the results depend on the processing

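Of 81 member results 52 were called, and their 756 alternatives kept the direction in every case and the call in 729. The 27 lost calls lie in 8 results, which the text names beside their values, and 44 called results kept their call throughout. Of 29 uncalled results 9 stayed uncalled with the same sign throughout. Counts of members called moved in these comparisons. P19-Sox2 over P19 EC had 2 called, 4 without background correction, 1 with only its groups fitted and 1 with any array left out. EpiSox2mL2 over EpiSCm had 1, against 2 without background correction, 2 with an offset of 50, 2 with an intensity trend, 0 with the authors' log2 values, 0 with only its groups and 0 to 2 with an array left out. EpiSox2mE2 over EpiSCm had 0, and 1 under median scaling. EpiSox2mE1 over EpiSox2mL2 had 2, 1 with the authors' values and 1 to 2 with an array left out. EpiSox2mE2 over EpiSox2mL2 had 1, 0 under median scaling and 0 to 1 with an array left out. EpiSox2mE2 over EpiSox2mE1 had 1, and 0 with only its groups.

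Reversals touched uncalled values alone. Under median scaling these were, in EpiSox2mE2 over EpiSCm, Otx2 (-0.27), Zic2 (-0.18) and Zfp608 (-0.30); over EpiSox2mL2, Pou3f1 (-0.0082), Zic2 (-0.083) and Zfp608 (-0.093); over EpiSox2mE1, Otx2 (-0.20); and Zfp608 in P19-Sox2 over P19 EC (-0.043). Leaving out arrays gave ranges across 0 for Zfp608 in P19-Sox2 over P19 EC (-0.15 to 0.37), Zic2 in EpiSox2mL2 over EpiSCm (-0.23 to 0.19), Otx2 in EpiSox2mE1 over EpiSCm (-0.073 to 0.027) and Otx2 (-0.11 to 0.20), Zic2 (-0.087 to 0.42) and Zfp608 (-0.088 to 0.18) in EpiSox2mE2 over EpiSCm. The same held for Pou3f1 (-0.031 to 0.41) and Zic2 (-0.067 to 0.44) in EpiSox2mE2 over EpiSox2mL2, Otx2 (-0.088 to 0.22) and Zic2 (-0.35 to 0.16) in EpiSox2mE2 over EpiSox2mE1, and Pou3f1 (-0.071 to 0.38) and Zfp608 (-0.49 to 0.039) in the difference of EpiSox2mL2 and P19-Sox2 effects. The cause was not tested.

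Without background correction 26 of 52 called values shrank by over 1.5 times; an offset of 50 did so for 7, and the authors' values enlarged 6. Median scaling moved the share of called genes that were higher by over 10 percentage points in 14 of 20 comparisons. It was 65.5% against 54.6% for EpiSCf over ESCf, 38.7% against 59% for EpiSCm over ESCm, 31.7% against 58.2%, 21.1% against 57.3% and 35% against 59.4% for EpiSox2mE1, EpiSox2mE2 and EpiSox2mL2 over ESCm, and 32.7% against 45.9%, 12% against 43.8% and 40.3% against 53% for these over EpiSCm. It was 16.1% against 44.4% for EpiSox2mE2 over EpiSox2mL2, 11.7% against 46.9% over EpiSox2mE1, 39.7% against 54.5% for F9-Sox2, 39.8% against 56.7% for P19-Sox2, 36.7% against 47% for the arrays labelled Epi-Sox2f, and 77.9% against 45.5% for the female minus male difference. With an array left out, the number of all genes called was as low as 482 (against 883) for F9-Sox2, 485 (against 936) for P19-Sox2, 1524 (against 2607) for the arrays labelled Epi-Sox2f, 1162 (against 2182) for EpiSox2mL2 over EpiSCm, 100 (against 213) for EpiSox2mE2 over EpiSox2mE1 and 1053 (against 1663) for the EpiSox2mL2 and P19-Sox2 difference. With only the groups compared it was 619 for P19-Sox2, 737, 1397 (against 2580) and 849 (against 2562) for EpiSox2mL2, EpiSox2mE1 and EpiSox2mE2 over EpiSCm, 1776 (against 3150) for EpiSox2mE2 over EpiSox2mL2, 10 for EpiSox2mE2 over EpiSox2mE1 and 970 for that difference, which had 978 under median scaling. With the replicate number as a block no member call changed, for instance 4 members called in EpiSCf over ESCf. Same-numbered deviations correlated at -0.172 to 0.073 over 2 pairs. The deviations of these pairs mirror each other, so the values cannot tell whether the numbers pair samples. A slide block was not run, because the files name no slide. With 2 arrays a group, an array left out leaves 1 whose spread is taken from the other groups. Zic2 in ESCf, F9 EC and P19 EC, Zfp608 in ESCf, ESCm and F9 EC, and Zic1 outside P19 were below detection, so folds against them are lower limits on the background-corrected scale.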
